A study of Mus musculus with 8 samples.

Results

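Solute carriers form a very large group of membrane transport proteins, and 198 of their genes were expressed in a series that measured RNA in primordial germ cells, their cell culture counterparts and the pluripotent lines they can form. Members were taken by gene symbol (Slc followed by a number) from the table of FPKM, that is, fragments for each kilobase of a transcript after scaling by how many fragments of the library mapped. The glucose transporters Slc2a1 and Slc2a3 were left out by the rule. A member needed at least 1 FPKM in at least 2 of the 8 libraries, with the entry of highest mean kept for each gene identifier. The rule left 198 of 367 Slc genes, within 11083 genes tested and 20153 genes in all. The other 169 Slc genes were under the limit, and 52 of them were listed at 0 in every library. The level filter was the only measured value that chose the members. Just inside it, the second-highest FPKM was 1.06 for Slc18a2, 1.06 for Slc12a8, 1.1 for Slc6a7 and 1.13 for Slc30a2. Just outside it, this value was 0.980 for Slc7a15, 0.978 for Slc39a2, 0.969 for Slc2a4 and 0.932 for Slc26a6.

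The samples formed 4 groups of 2 libraries. Primordial germ cells (PGCs), the embryonic founders of eggs and sperm, were sorted from E9.5 embryos of the Oct4gfpXCD1 strain at P0, and about 250 cells went into each library. Embryonic germ cell (EGC) lines 4 and 7 are pluripotent lines derived from sorted E9.5 PGCs of the same strain and were at P6, with 500 cells per library. Each EGC library was thus 1 line, and per the labels EGCs were grown on mouse feeder cells in serum with LIF. The iPGCs came from BVSC embryonic stem cells at P21 by a hanging drop method, with 1500 cells per library. The PGC-like cells (PGCLCs) came from the same BVSC stem cells at P21 in aggregates after an epiblast-like stage, with 300 to 500 cells per library. Strain and passage thus differed between PGCs and both stem cell products, while PGCs and EGCs shared the strain and differed in passage and culture. The labels call the 2 libraries of a group biological replicates, and nothing else in them says that these were separate cultures or litters, so the p-values measure only the spread between these libraries.

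Approximate depths, read from the smallest steps between low FPKM values, ran from 2.46 M reads in iPGC library 1 to 18 M reads in PGC library 1. Between 7991 and 10039 genes reached 1 FPKM per library. PGC markers were present in the sorted cells, with a summed 590 and 1372 FPKM over 7 markers, against 128 and 252 FPKM in EGC lines 4 and 7. PGC library 1 stood apart, since 8 yolk sac endoderm markers summed to 225 FPKM there, to 0.0481 in PGC library 2 and to between 0.596 and 10.9 in the other libraries. Its 8 macrophage markers summed to 115 FPKM, against 3.22 to 16.4 in the other libraries, and its 4 megakaryocyte markers to 53.5 FPKM, against 0 in PGC library 2 and at most 18.1 elsewhere. Erythroid markers went the other way, since 5 of them summed to 9.38 FPKM in PGC library 1 and 32.7 in library 2, all of it Alas2, the first enzyme of haem synthesis in red cells, and to at most 3.08 elsewhere. The part of these transcripts in the member values was not tested, and values of PGC library 1 are therefore given apart from those of library 2 throughout. In these bulk libraries, fewer cells of a type and less RNA per cell cannot be told apart.

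Solute carriers move nutrients, ions, metals and metabolites across membranes by facilitated diffusion, by exchange or by coupling to the gradients of sodium or protons that ATP-driven pumps maintain. Plasma membrane carriers set what a cell can take up, Slc25 carriers link the cytosol with the mitochondrial matrix, and Slc35 carriers bring nucleotide sugars into the Golgi and the endoplasmic reticulum. Mouse pluripotent cells are known for rapid glycolysis with lactate export and for a high demand for amino acids and one-carbon units. By known substrate, 38 members were mitochondrial carriers and 31 carried amino acids or peptides. Inorganic ions were the substrate of 26 members, metals or haem of 24, and vitamins, choline or other organic solutes of 24. Nucleotide sugars or sugar phosphates were carried by 23 members, carboxylates, fatty acids or bile acids by 14, sugars and polyols by 8, and nucleosides or nucleobases by 6. The remaining 4 members share the symbol but are not transporters.

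Of the members, 5 passed the test in at least 1 comparison: Slc44a2, Slc9b1, Slc4a8, Slc16a6 and Slc35a5. The 250 bases before the annotated start of each of the 4 that had an entry in the RefSeq promoter table (GRCm38.p6) are shown, 5′ to 3′ on the gene's own strand, with CG dinucleotides in capitals, because these are the promoters of the members the tests single out.
Slc44a2: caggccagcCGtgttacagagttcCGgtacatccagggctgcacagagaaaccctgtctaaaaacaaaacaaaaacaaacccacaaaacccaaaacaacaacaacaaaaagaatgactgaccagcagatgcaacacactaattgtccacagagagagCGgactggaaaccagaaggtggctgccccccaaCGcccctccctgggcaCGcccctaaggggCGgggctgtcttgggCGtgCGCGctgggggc
Slc9b1: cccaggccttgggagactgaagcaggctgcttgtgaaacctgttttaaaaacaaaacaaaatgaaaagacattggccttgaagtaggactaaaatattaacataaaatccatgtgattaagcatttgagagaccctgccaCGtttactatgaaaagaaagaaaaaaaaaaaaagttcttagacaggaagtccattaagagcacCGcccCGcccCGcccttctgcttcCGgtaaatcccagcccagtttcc
Slc4a8: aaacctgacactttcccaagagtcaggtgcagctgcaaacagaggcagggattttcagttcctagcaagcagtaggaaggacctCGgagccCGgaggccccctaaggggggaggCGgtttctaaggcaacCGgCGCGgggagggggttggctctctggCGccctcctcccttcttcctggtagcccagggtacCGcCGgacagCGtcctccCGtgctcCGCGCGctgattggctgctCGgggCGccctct
Slc35a5: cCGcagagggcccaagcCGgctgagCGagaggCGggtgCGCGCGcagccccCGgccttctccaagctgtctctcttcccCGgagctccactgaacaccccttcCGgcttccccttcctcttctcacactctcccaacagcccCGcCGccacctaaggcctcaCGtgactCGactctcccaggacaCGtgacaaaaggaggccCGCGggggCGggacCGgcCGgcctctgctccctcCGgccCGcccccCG

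The Slc44a2 window, the nearest to the gene start of 2 RefSeq windows, lies at chr9:21320469-21320718 on the plus strand. Its end lies past the gene start of the GENCODE M21 annotation, given below. It holds 9 CG dinucleotides. The Slc9b1 window, at chr3:135347779-135348028 on the plus strand, holds 5, and the Slc4a8 window, at chr15:100761497-100761746 on the plus strand, holds 16. The Slc35a5 window, at chr16:45158674-45158923 on the minus strand, holds 23. Of 32851 windows of this length over all genes, 40.3% held at least 9 CG dinucleotides, 55.6% at least 5, 25.4% at least 16 and 13.3% at least 23. The median was 6 over all windows and 13 over 203 windows that matched 152 of the 198 members. The first set holds genes of any level, while members had passed the level filter. Windows of the tested genes alone were not counted, so this gap is not a result about the family. These are letters of the reference, and no methylation or binding was measured in these libraries.

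Fewer members were detected in PGCs than in any other group. At 1 FPKM or more, PGC libraries 1 and 2 had 112 and 109 of the 198 members (56.6% and 55.1%), the iPGC libraries 163 and 164, the PGCLC libraries 154 and 165, and EGC lines 4 and 7 had 131 and 143. Both PGC libraries lay below all 6 others. They also came from the fewest starting cells, about 250 each, so group and starting cell number cannot be told apart here. Over all 11083 tested genes, the PGC libraries also had the smallest share at 1 FPKM, 71.3% and 70.8%, against 76.8% to 88.9% in the others. In both PGC libraries, 62 members (31.3%) were under 1 FPKM and so met the limit through other groups, against 18% of all tested genes. Only 15 members were under 1 FPKM in both iPGC libraries, 17 in both PGCLC libraries and 33 in both EGC lines. A member that is low in PGCs and was kept through the other groups had to differ from PGCs, so counts over members are given only as a description beside those over all tested genes. The highest group mean fell in PGCs for 36 members (18.2%, against 24.5% of tested genes), in iPGCs for 53 (26.8%, against 26.8%), in PGCLCs for 78 (39.4%, against 32.6%) and in EGCs for 31 (15.7%, against 16%). In summed level the groups lay closer, since members added up to 1322 and 1506 FPKM in PGC libraries 1 and 2, 1679 and 1779 in iPGCs and 2125 and 1647 in PGCLCs, with 1289 and 1221 in EGC lines 4 and 7. That was 0.679% to 0.821% of the FPKM of all genes in a library.

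**Figure D1:**
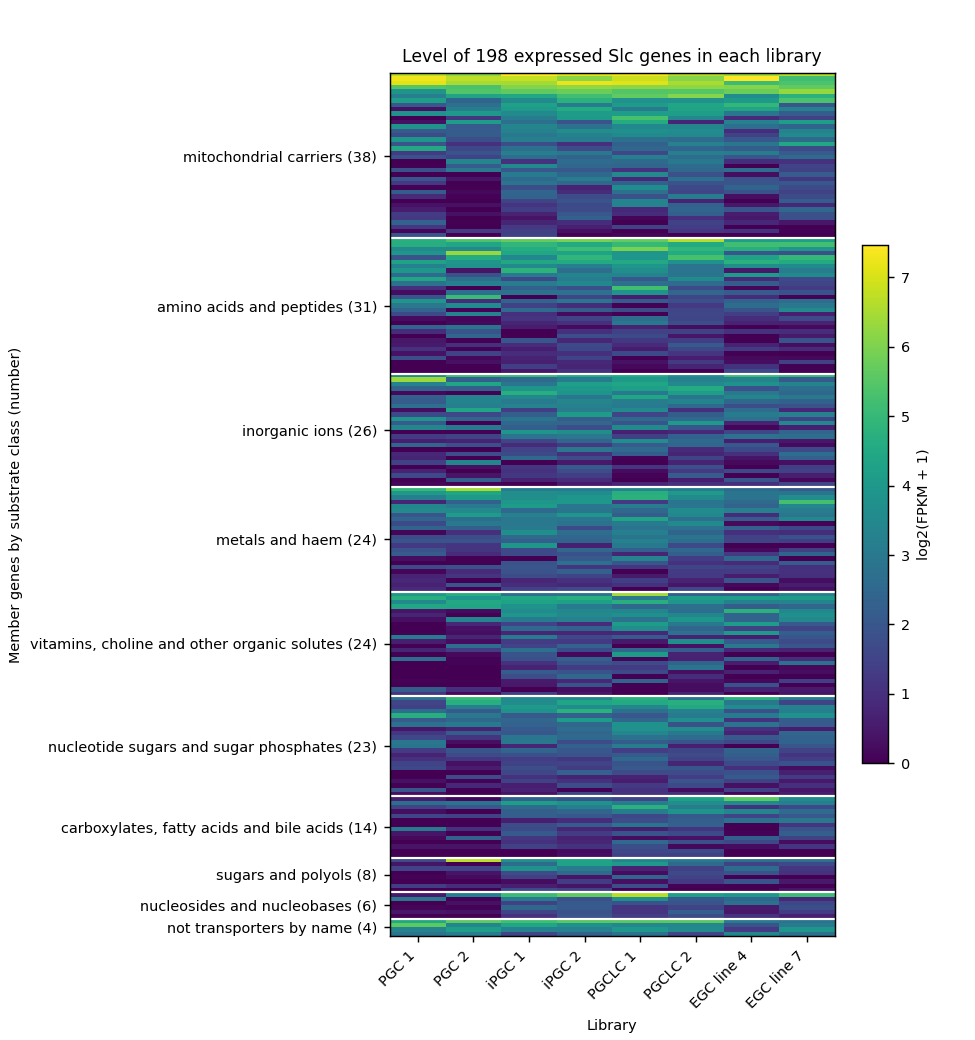
Level of each of the 198 members, as log2(FPKM + 1), in each of the 8 libraries, with members grouped by substrate class and ordered by mean within a class. The top rows of the mitochondrial class are bright in all libraries. Many lower rows are dark in the PGC columns, where 112 and 109 members reached 1 FPKM. Some top rows are dark there too, such as Slc16a3 among carboxylate carriers (0.482 and 0.108 FPKM in PGC libraries 1 and 2).

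All 3 comparisons with PGCs share the same 2 PGC libraries and are given side by side, not as support for each other. Differences are on the log2(FPKM + 1) scale, which understates the change of low genes. The median difference of all tested genes was 0.07 for EGCs, 0.47 for iPGCs and 0.44 for PGCLCs against PGCs, so differences of the last 2 are also given relative to that shift. In EGCs, 114 members lay above PGCs, 81 below and 3 were equal, listed at 0 in all 4 libraries, with a median of 0.27. In iPGCs, 155 lay above and 43 below (median 0.71, relative 0.25). For PGCLCs these counts were 142 above and 54 below, with 2 equal (median 0.63, relative 0.19). Over all tested genes, 52.3%, 66.4% and 65.9% lay above PGCs, beside 57.6%, 78.3% and 71.7% of members. With quantile normalization the member median was -0.04, -0.03 and 0.07 in the 3 comparisons, so the sign over all members depended on the scaling. Both libraries of a group lay above both PGC libraries for 57 members in EGCs (28.8%, against 24.1% of tested genes), for 97 in iPGCs (49%, against 39.4%) and for 87 in PGCLCs (43.9%, against 33.5%). Both lay below both PGC libraries for 31 members in EGCs (15.7%, against 20% of tested genes), 18 in iPGCs (9.09%, against 13.1%) and 12 in PGCLCs (6.06%, against 11.8%).

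Few single members passed the test of limma at an adjusted p of 0.05, with 2 libraries a group. It called 1 member of EGCs against PGCs, 2 of iPGCs and 3 of PGCLCs, each of them higher than in PGCs. All of these members were under 1 FPKM in both PGC libraries. They were kept through the other groups, which fixes much of their direction. Over all tested genes, the same test called 0.74% (82 genes), 0.794% (88) and 1.06% (117), and 0.523%, 0.749% and 0.938% of genes as higher. The members' shares of 0.505%, 1.01% and 1.52% were of a similar order. At an unadjusted p under 0.05 there were 33, 40 and 48 members. Without PGC library 1, the library with the markers of other cell types, 3 members passed in EGCs (Slc38a10, Slc39a14 and Slc45a4) and 0 in iPGCs or PGCLCs (39 and 44 at an unadjusted p under 0.05). The PGC arm was then 1 library, assumed to vary like the other groups, so these passes say nothing of the spread between PGC libraries. These 3 lay lower than in PGC library 2, the higher of the pair for each, and Slc45a4 measured 2.34 FPKM in the library left out, below both EGC lines. Of the members called with both PGC libraries, 0 passed without library 1. Between PGCLCs and iPGCs it called 0 members (10 at an unadjusted p under 0.05), beside 0.018% of all tested genes. Between EGCs and iPGCs it called 0 members (26 at an unadjusted p under 0.05), beside 0.117%, and between EGCs and PGCLCs also 0 (34 at an unadjusted p under 0.05), beside 0.0993%.

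Slc44a2, a choline transporter-like protein, was the member that passed the test in EGCs. It measured 0.301 and 0.173 FPKM in PGC libraries 1 and 2 and 26.6 and 10.2 FPKM in EGC lines 4 and 7. Both EGC lines lay far above both PGC libraries, with a log2 difference of 3.83 ± 0.64 (SE; limma adjusted p = 0.0454). Its levels were 11.2 and 9.86 FPKM in iPGCs and 9.73 and 5.47 FPKM in PGCLCs, also above both PGC libraries; against PGCs the iPGC difference was 3.22 (relative 2.75, adjusted p = 0.0646). The gene lies at chr9:21320698-21355028 on the plus strand (GRCm38, GENCODE M21). The EGC call was lost when any of the 8 libraries was left out, with adjusted p between 0.064 (without PGC library 2) and 0.236 (without EGC line 4), while the difference stayed between 3.18 and 4.48. The other choline transporter of high level, Slc44a1, measured 10.8 and 21.7 FPKM in PGCs, 19.2 and 17.9 in iPGCs and 24.6 and 13.9 in PGCLCs, with 8.74 and 9.10 in EGC lines 4 and 7. For Slc44a1 the PGC values overlapped those of iPGCs and PGCLCs and lay above the EGC lines.

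In iPGCs, a pair of ion exchangers rose. Slc9b1, a sodium and proton exchanger known from sperm, measured 0.120 and 0.0374 FPKM in PGC libraries 1 and 2, 25.1 and 13.6 in iPGCs and 7.01 and 16.9 in PGCLCs, with 6.72 and 4.77 in EGC lines 4 and 7. Every culture-derived library lay above both PGC libraries. The difference from PGCs was 4.18 ± 0.64 in iPGCs (relative 3.71, limma adjusted p = 0.0331) and 3.47 ± 0.64 in PGCLCs (relative 3.04, adjusted p = 0.0492), so Slc9b1 passed in both. Slc4a8, which exchanges sodium and bicarbonate for chloride, measured 0 and 0.0409 FPKM in PGCs, 14.1 and 12.1 in iPGCs and 0.576 and 0.779 in PGCLCs, with 2.09 and 4.36 in EGC lines 4 and 7. It was thus at 12.1 FPKM or more in iPGCs and at most 4.36 FPKM elsewhere, with a difference from PGCs of 3.79 ± 0.58 (relative 3.32, adjusted p = 0.0331). Against iPGCs, Slc4a8 lay lower in PGCLCs by a log2 difference of -3.07 ± 0.58, which did not pass (adjusted p = 0.696). Slc9b1 lies at chr3:135348029-135397827 and Slc4a8 at chr15:100761747-100823968, both on the plus strand. Without PGC library 2 both iPGC calls held (adjusted p = 0.0431 and 0.045), and without any other library they were lost, with adjusted p up to 0.351 and 0.341 without iPGC library 1. With equal library medians or quantile normalization, no member passed in iPGCs or PGCLCs.

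In PGCLCs, Slc16a6 and Slc35a5 rose beside Slc9b1. Slc16a6, the monocarboxylate transporter family member MCT7, was at 0.221 FPKM in PGC library 1 and near 0 in library 2, at 3.75 and 4.35 FPKM in iPGCs and 7.86 and 13.6 in PGCLCs, with 9.43 and 5.11 in EGC lines 4 and 7. Its PGCLC difference from PGCs was 3.36 ± 0.61 (relative 2.93, limma adjusted p = 0.0481), and its EGC difference of 2.85 ± 0.61 did not pass (adjusted p = 0.0748). The gene (chr11:109450855-109473598, minus strand) overlaps Amz2 and Arsg, and since use of strand in counting is not given in the sources used here, reads of overlapping genes cannot be told apart. Overlaps of other named members with protein-coding genes are given beside their values, and those with non-coding transcripts are not listed. Slc35a5, a nucleotide sugar transporter family member of the Golgi, measured 0.381 and 0.672 FPKM in PGCs, 3.34 and 5.39 in iPGCs and 12.6 and 11.9 in PGCLCs, with 1.09 and 0.505 in EGC lines 4 and 7. The PGCLC libraries lay above all 6 others, and the difference from PGCs was 3.13 ± 0.58 (relative 2.69, adjusted p = 0.0492). From PGCLCs to EGCs the Slc35a5 difference was -2.90 ± 0.58 (relative -2.52, adjusted p = 0.128). All 3 PGCLC calls were lost when any 1 library was left out, with the lowest adjusted p, 0.0566 for Slc9b1, 0.0567 for Slc16a6 and 0.0516 for Slc35a5, without PGC library 2. The highest, 0.209, 0.215 and 0.215, came without PGCLC library 1.

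**Figure D2:**
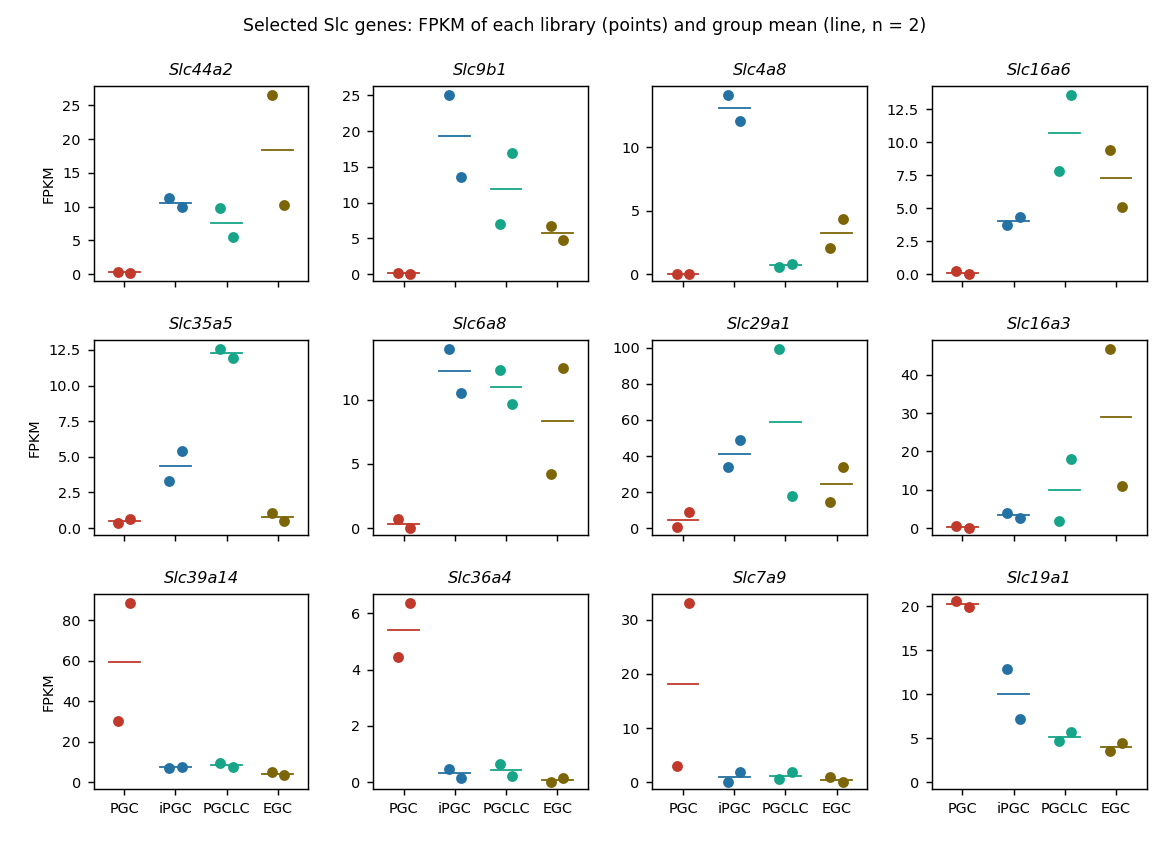
FPKM of 12 members in each library (points) with the mean of each group (line, n = 2), on a linear axis that starts near 0 in each panel. The upper panels show members with low PGC values, such as Slc44a2 at 0.301 and 0.173 FPKM, and the bottom row members with their highest values in PGCs, such as Slc39a14 at 30 and 88.6 FPKM.

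Transporters of nucleosides and nucleobases, which feed nucleotide salvage, were mostly kept by their levels outside PGCs. Of the 6 members, 4 were under 1 FPKM in both PGC libraries and met the limit through the other groups, which fixes much of their direction, so the counts here are a description. All 6 had a positive difference in each comparison, with medians of 0.98 in EGCs, 1.56 in iPGCs and 1.46 in PGCLCs, and none passed the test. For 5 of 6 (83.3%), both libraries of a group lay above both PGC libraries in each comparison, beside 24.1%, 39.4% and 33.5% of all tested genes. The class median stayed between 0.64 and 1.06 with quantile normalization or equal library medians, and was 1.18, 1.80 and 1.57 without PGC library 1. Summed levels were 7.91 and 9.38 FPKM in PGC libraries 1 and 2, 50.7 and 63.7 in iPGCs and 119 and 31.8 in PGCLCs, with 27.2 and 41.4 in EGC lines 4 and 7, with no overlap between PGCs and the rest. Outside PGC library 1, most of this sum was Slc29a1, the equilibrative nucleoside transporter ENT1. Slc29a1 measured 0.460 and 8.73 FPKM in PGCs, 33.6 and 48.9 in iPGCs and 99.5 and 18 in PGCLCs, with 14.7 and 34 in EGC lines 4 and 7. Slc29a1 gave differences of 3.46 ± 1.03 in iPGCs (relative 3.0, adjusted p = 0.134) and 3.54 ± 1.03 in PGCLCs (relative 3.10, adjusted p = 0.12). The PGC libraries differed widely from each other. Without PGC library 2, the PGCLC difference of Slc29a1 was 4.90 (adjusted p = 0.0484), against the single library at 0.460 FPKM and with the spread taken from the other groups. Slc28a1, a sodium-coupled pyrimidine nucleoside transporter, measured 0 and 0.264 FPKM in PGCs, 1.77 and 3.23 in iPGCs and 2.70 and 2.87 in PGCLCs, with 5.84 and 2.08 in EGC lines 4 and 7. Slc43a3, a purine nucleobase transporter, measured 6.99 and 0.0481 FPKM in PGCs and was the member of the class whose groups overlapped. It made up most of the class sum in PGC library 1.

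Of the 14 monocarboxylate, fatty acid and bile acid carriers, 9 were under 1 FPKM in both PGC libraries and were kept through the other groups, so lying above PGCs follows in large part from the limit. In EGCs 10 lay above PGCs, 2 below and 2 were equal, and 12 lay above in iPGCs and in PGCLCs, with medians of 0.59 in EGCs, 0.90 in iPGCs and 1.60 in PGCLCs. Both libraries lay above both PGC libraries for 5 members in EGCs (35.7%), 10 in iPGCs (71.4%) and 11 in PGCLCs (78.6%), beside 24.1%, 39.4% and 33.5% of all tested genes, and both lay below for 0. Slc16a6 in PGCLCs was the only member of the class that passed the test. The summed level was 18.2 and 16.4 FPKM in PGC libraries 1 and 2, 46.4 and 41 in iPGCs and 69.4 and 71.9 in PGCLCs, with 81.6 and 47.3 in EGC lines 4 and 7. Without EGC line 7 the EGC median of this class was 0.00, and with the scalings above it stayed between 0.23 and 1.1 over the 3 comparisons. Without PGC library 1 the class medians were 0.43, 0.89 and 1.72.

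Both main lactate carriers of this class were members. Slc16a3, the lactate exporter MCT4 known from glycolytic cells, measured 0.482 and 0.108 FPKM in PGC libraries 1 and 2, 3.95 and 2.69 in iPGCs and 1.98 and 18 in PGCLCs, with 46.7 and 11 in EGC lines 4 and 7. Every culture-derived library lay above both PGC libraries, and the EGC difference of 4.22 ± 0.98 did not pass (adjusted p = 0.0924). Slc16a1, the widely expressed MCT1, measured 5.51 and 6.11 FPKM in PGCs, 17.1 and 13.2 in iPGCs and 7.78 and 11.6 in PGCLCs, with 10.5 and 8.28 in EGC lines 4 and 7. The ratio of Slc16a3 to Slc16a1 in FPKM was 0.0875 and 0.0177 in PGCs, 0.232 and 0.204 in iPGCs and 0.254 and 1.56 in PGCLCs, with 4.43 and 1.32 in EGC lines 4 and 7. MCT4 was therefore listed below MCT1 in both PGC and both iPGC libraries and above it in both EGC lines. Bsg, the chaperone that brings both transporters to the cell surface, measured 32.9 and 42.3 FPKM in PGCs, 126 and 109 in iPGCs and 161 and 121 in PGCLCs, with 58.4 and 60.4 in EGC lines 4 and 7. None of the Bsg differences passed (adjusted p = 0.0592 in PGCLCs against PGCs, 0.0806 in iPGCs and 0.423 in EGCs).

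Fatty acid transport proteins of this class differed in where they were highest. Slc27a2, which imports and activates long and very long chain fatty acids, was listed at 0 in both PGC libraries, at 0.558 and 0.920 FPKM in iPGCs and 2.41 and 3.75 in PGCLCs, with 5.84 and 6.75 in EGC lines 4 and 7. The EGC lines lay above all other libraries, and no fold is given against PGCs, where an exact 0 may be a failed estimate; the difference of 2.87 ± 0.55 on the log2(FPKM + 1) scale did not pass (adjusted p = 0.0659). Slc27a1, a related importer, measured 1.88 and 3.06 FPKM in PGCs, 5.22 and 8.25 in iPGCs and 26.2 and 7.89 in PGCLCs, with 1.12 and 2.12 in EGC lines 4 and 7, so its EGC values overlapped those of PGCs.

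Mitochondrial carriers made up the largest class and held the highest levels of all members. Their differences from PGCs had medians of 0.44 in EGCs, 0.86 in iPGCs and 0.84 in PGCLCs, and remained positive with both other scalings (0.15 to 0.39) and without PGC library 1 (0.54, 1.01 and 1.29). Both libraries lay above both PGC libraries for 11, 20 and 19 of 38 members (28.9%, 52.6% and 50%), beside 24.1%, 39.4% and 33.5% of all tested genes, and below for 2, 0 and 0. The EGC share was close to that of all tested genes. No mitochondrial carrier passed the test. Slc25a3, the phosphate carrier that feeds ATP synthesis, measured 102 and 70.3 FPKM in PGCs, 175 and 141 in iPGCs and 157 and 99.3 in PGCLCs, with 81.2 and 95.4 in EGC lines 4 and 7. Its iPGC values lay above both PGC libraries, and the PGCLC and EGC ranges overlapped those of PGCs. Slc25a39, a carrier of glutathione into mitochondria, measured 142 and 87.8 FPKM in PGCs, 87.2 and 152 in iPGCs and 136 and 89.8 in PGCLCs, with 33.5 and 40 in EGC lines 4 and 7, and was lowest in both EGC lines.

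The ADP/ATP exchangers, which bring ATP out of mitochondria, differed in their proportions. Slc25a4 measured 154 and 104 FPKM in PGCs, 110 and 69.3 in iPGCs and 116 and 67.5 in PGCLCs, with 172 and 35.1 in EGC lines 4 and 7. Slc25a5 measured 43.4 and 38.6 FPKM in PGCs, 66.8 and 75.7 in iPGCs and 70.8 and 72.5 in PGCLCs, with 66.7 and 48.5 in EGC lines 4 and 7. Slc25a4 lay above Slc25a5 in PGCs by a ratio of 3.54 and 2.70, while the ratio was 1.65 and 0.915 in iPGCs and 1.64 and 0.931 in PGCLCs, with 2.58 and 0.724 in EGC lines 4 and 7. Both PGC ratios were above the other 6. Reads shared between these related genes, or with pseudogenes, could make the levels uncertain, which was not tested.

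Slc25a20, which exchanges carnitine for acylcarnitine so that fatty acids can be oxidized, gave the largest PGCLC difference of its class. It measured 0 and 1.31 FPKM in PGCs, 7.89 and 15.8 in iPGCs and 37.9 and 10.1 in PGCLCs, with 0.884 and 1.76 in EGC lines 4 and 7. Both stem cell products lay above PGCs and EGCs, which overlapped. The difference from PGCs was 3.77 ± 0.80 in PGCLCs (relative 3.33, adjusted p = 0.0644), and from PGCLCs to EGCs it was -3.19 ± 0.80 (relative -2.80, adjusted p = 0.183). Slc25a14, an uncoupling protein family member, lay higher in EGC lines 4 and 7 (6.62 and 21.4 FPKM) than in iPGCs (2.45 and 0.998), with a difference of 2.31 ± 0.76 (relative 2.72, adjusted p = 0.364). Of 10 genes for the mitochondrial pyruvate carrier and the outer membrane channels of the VDAC family, summed levels were 80.7 and 101 FPKM in PGCs and between 169 and 273 FPKM in the other 6 libraries.

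Metal and haem transporters lay mostly below their PGC levels in EGCs. There, 16 of 24 members lay below and 8 above, with a median of -0.31, which stayed negative with quantile normalization (-0.47) and equal library medians (-0.41) and was -0.30 without PGC library 1. Both EGC lines lay below both PGC libraries for 8 members (33.3%, against 20% of all tested genes) and above for 3 (12.5%, against 24.1%), and none passed the test. In iPGCs and PGCLCs the medians were 0.50 and 0.51, close to the shift of all tested genes, and turned to -0.07 and -0.12 with quantile normalization. The summed level was 106 and 196 FPKM in PGC libraries 1 and 2, 149 and 131 in iPGCs and 163 and 128 in PGCLCs, with 62.4 and 115 in EGC lines 4 and 7, so the EGC range overlapped that of PGCs.

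Slc39a14, the importer ZIP14 of zinc, iron and manganese, had its highest levels in PGCs. It measured 30 and 88.6 FPKM in PGC libraries 1 and 2, 7.24 and 7.66 in iPGCs and 9.41 and 7.66 in PGCLCs, with 5.19 and 3.33 in EGC lines 4 and 7. Both PGC libraries lay above all 6 others. The differences from PGCs were -3.35 ± 0.62 in EGCs (adjusted p = 0.0605), -2.64 ± 0.62 in iPGCs (relative -3.11, adjusted p = 0.0806) and -2.47 ± 0.62 in PGCLCs (relative -2.91, adjusted p = 0.0876), and none passed. Against PGC library 2 alone, with the spread taken from the other groups, the EGC difference was -4.11 and passed (adjusted p = 0.0324), as it did with all libraries with equal library medians (adjusted p = 0.0487) or when genes needed 5 FPKM (adjusted p = 0.0486). Slc39a10, a plasma membrane zinc importer, measured 15.5 and 19.8 FPKM in PGCs, 11.6 and 11.4 in iPGCs and 25.0 and 15.0 in PGCLCs, with 6.45 and 6.51 in EGC lines 4 and 7, and Slc39a7, which releases zinc from the endoplasmic reticulum, stayed between 6.16 and 26.9 FPKM in all 8 libraries.

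Slc40a1, the iron exporter ferroportin, was lowest in both EGC lines. It measured 2.17 and 7.09 FPKM in PGCs, 6.92 and 5.96 in iPGCs and 7.68 and 10.9 in PGCLCs, with 0.137 and 0.0459 in EGC lines 4 and 7. Both EGC lines lay below the other 6 libraries, and the difference from PGCLCs was -3.22 ± 0.65 (relative -2.84, adjusted p = 0.128). Slc11a2, the importer DMT1 of ferrous iron, measured 10.5 and 10.5 FPKM in PGCs, 4.83 and 6.53 in iPGCs and 4.63 and 11.2 in PGCLCs, with 8.50 and 8.01 in EGC lines 4 and 7. Slc41a1, a magnesium transporter, lay higher in iPGCs (14.3 and 14.6 FPKM) than in PGCLCs (1.43 and 6.46), with a difference of -1.86 ± 1.00 from iPGCs to PGCLCs that did not pass (adjusted p = 1). Among genes that respond to zinc, all 3 tested had a positive difference from PGCs in each comparison. Of these, 1 passed the limma test in each, the metallothionein Mt2, with differences of 5.77 ± 0.53 in EGCs (adjusted p = 0.00501), 6.90 ± 0.53 in iPGCs (adjusted p = 0.00236) and 4.38 ± 0.53 in PGCLCs (adjusted p = 0.0165).

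**Figure D3:**
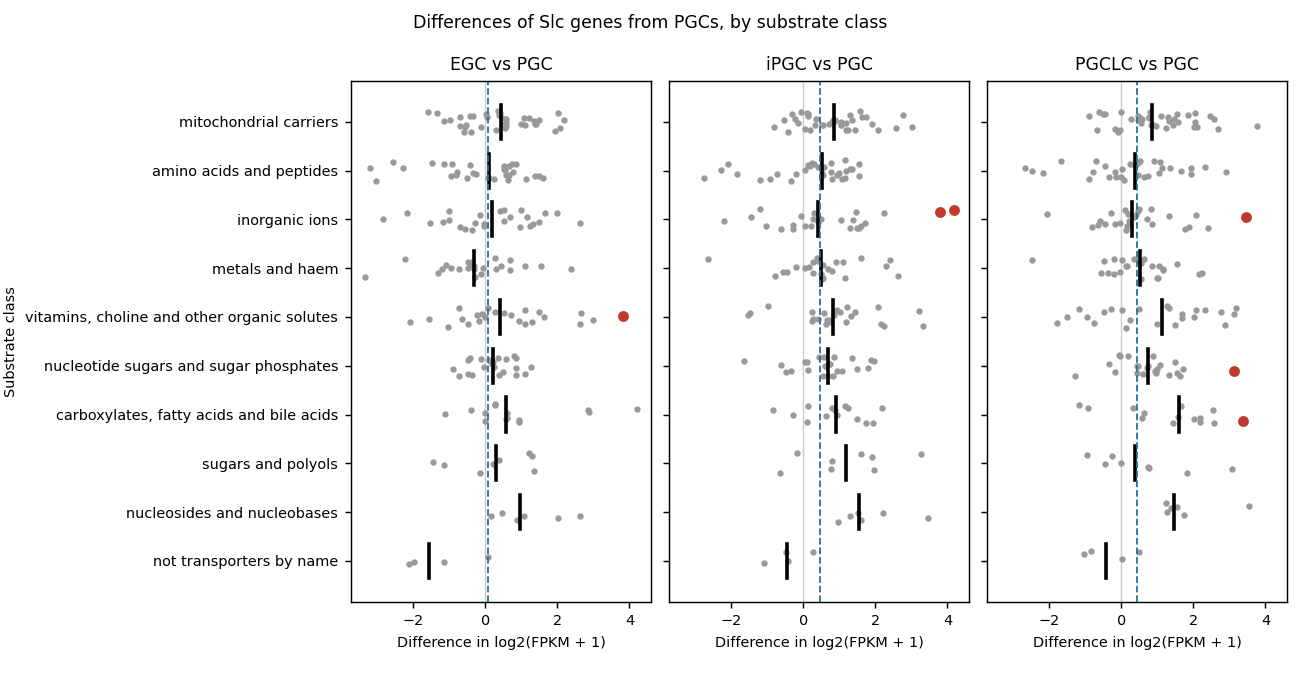
Difference of each member from PGCs on the log2(FPKM + 1) scale (points) by substrate class, with class medians (black bars), the median of all tested genes (dashed line) and members that passed the test in red. Nucleoside and carboxylate carriers sit mostly to the right, metal transporters in EGCs to the left (median -0.31), and 1, 2 and 3 members are red.

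Amino acid and peptide transporters lay on both sides of their PGC levels. In EGCs, 17 of 31 lay above PGCs and 14 below (median 0.10), with 8 above and 8 below without overlap (25.8% each, against 24.1% and 20% of all tested genes). The medians in iPGCs and PGCLCs were 0.53 and 0.39, near the shift of all tested genes, and were -0.09 and -0.22 with quantile normalization. None passed the test. The most abundant were Slc38a4, Slc7a3 and Slc3a2. Slc38a4, a sodium-coupled neutral amino acid transporter and an imprinted gene, measured 24.8 and 40.1 FPKM in PGCs, 50.3 and 60 in iPGCs and 50.3 and 96.1 in PGCLCs, with 17.3 and 18 in EGC lines 4 and 7, with no overlap between EGCs, PGCs and the stem cell products. Slc7a3, an importer of arginine and lysine, was steady, from 20.5 to 35.5 FPKM over the 8 libraries. Slc3a2, the heavy chain that brings several Slc7 light chains to the surface, measured 10.4 and 10.5 FPKM in PGCs, 23.3 and 34.3 in iPGCs and 61.7 and 29 in PGCLCs, with 24.6 and 13.8 in EGC lines 4 and 7, and both PGC values were the lowest.

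Several amino acid transporters had their highest group mean in PGCs. Slc36a4, a transporter of proline and tryptophan, measured 4.44 and 6.37 FPKM in PGC libraries 1 and 2, 0.475 and 0.156 in iPGCs and 0.630 and 0.220 in PGCLCs, with 0 and 0.147 in EGC lines 4 and 7. Both PGC libraries lay above all others, and differences were -2.56 ± 0.52 in EGCs (adjusted p = 0.0703), -2.28 ± 0.52 in iPGCs (relative -2.74, adjusted p = 0.0802) and -2.17 ± 0.52 in PGCLCs (relative -2.60, adjusted p = 0.0789). Slc7a9, the light chain of the cystine transporter of kidney and gut, measured 3.01 and 33.1 FPKM in PGCs and at most 1.97 FPKM elsewhere, and its difference rested on unequal PGC values (EGCs -3.04 ± 1.05, adjusted p = 0.2). Slc38a10, a sodium-coupled neutral amino acid transporter, measured 14.5 and 78.4 FPKM in PGCs, 13.9 to 23.2 in the stem cell products, and 3.01 and 2.64 in EGC lines 4 and 7 (EGCs against PGCs -3.20 ± 0.75, adjusted p = 0.0932). Its pass without PGC library 1 (-4.38, adjusted p = 0.0265) was against the single library at 78.4 FPKM. Slc43a1, which carries branched-chain amino acids, measured 20.1 and 5.69 FPKM in PGCs, 2.04 and 7.70 in iPGCs and 3.07 and 10.8 in PGCLCs, with 0.866 and 2.13 in EGC lines 4 and 7, so PGC library 2 lay within the range of both stem cell products.

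Slc1a3, a glutamate and aspartate importer, was lowest in the stem cell products. It measured 6.84 and 11.4 FPKM in PGCs, 1.78 and 0.954 in iPGCs and 0.0293 and 1.34 in PGCLCs, with 5.2 and 6.87 in EGC lines 4 and 7. EGC line 7 overlapped PGC library 1, while both stem cell products lay below all 4 of these libraries. The differences were -2.08 ± 0.66 from PGCs to iPGCs (relative -2.55, adjusted p = 0.146), -2.67 ± 0.66 from PGCs to PGCLCs (relative -3.10, adjusted p = 0.0855) and 2.17 ± 0.66 from PGCLCs to EGCs (relative 2.55, adjusted p = 0.232). Slc38a3, a glutamine transporter of liver and brain, measured 2.14 and 8.87 FPKM in PGCs and 1.07 and 0.175 in iPGCs. Slc7a1, an arginine importer, measured 4.42 and 0.0431 FPKM in PGCs, and 2.81 and 10.5 in EGC lines 4 and 7. Among 16 tested genes of the amino acid response outside the family, 1 passed the limma test, Ddit4 in PGCLCs against PGCs (4.29 ± 0.67, adjusted p = 0.0357), and 0 passed in EGCs or iPGCs. Both libraries lay above both PGC libraries for 10 of the 16 in EGCs, 12 in iPGCs and 9 in PGCLCs. These were 62.5%, 75% and 56.25%, beside 24.1%, 39.4% and 33.5% of all tested genes. The list's medians were 0.73 in EGCs, 1.37 in iPGCs and 1.52 in PGCLCs, and 0 of 18 tested genes of lysosomal amino acid sensing by mTORC1 passed in any of these comparisons.

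Vitamin, choline and organic solute carriers included Slc44a2. Of these 24 members, 13 were under 1 FPKM in both PGC libraries and were kept through the other groups. Lying above PGCs thus follows in large part from the limit. Their medians against PGCs were 0.40 in EGCs, 0.82 in iPGCs and 1.13 in PGCLCs, and 0.10 to 0.59 with the other scalings. Slc6a8, the creatine transporter, measured 0.692 and 0.0244 FPKM in PGCs, 14 and 10.5 in iPGCs and 12.3 and 9.68 in PGCLCs, with 4.19 and 12.4 in EGC lines 4 and 7. Every culture-derived library lay above PGCs, with differences of 3.32 ± 0.66 in iPGCs (relative 2.85, adjusted p = 0.0646), 3.18 ± 0.66 in PGCLCs (relative 2.74, adjusted p = 0.0628) and 2.67 ± 0.66 in EGCs (adjusted p = 0.101). Slc19a1, the reduced folate carrier, was highest in PGCs, at 20.6 and 20 FPKM in PGCs, 12.9 and 7.24 in iPGCs and 4.64 and 5.71 in PGCLCs, with 3.58 and 4.47 in EGC lines 4 and 7. Both PGC libraries lay above all others, and the PGCLC difference of -1.79 ± 0.54 (relative -2.23) did not pass (adjusted p = 0.129). Slc19a1 overlaps Col18a1 in the annotation.

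Vitamin C transporters differed by line and library. Slc23a1 measured 0.0376 and 0.200 FPKM in PGCs, 0.727 and 0.739 in iPGCs and 0.827 and 6.02 in PGCLCs, with 15.6 and 3.72 in EGC lines 4 and 7 (EGCs against PGCs 2.99 ± 0.84, adjusted p = 0.131), and it overlaps Paip2. Slc23a2 measured 15.4 and 24.3 FPKM in PGCs, 85.7 and 3.93 in PGCLCs, and 3.91 to 8.64 in the iPGC and EGC libraries, so 1 PGCLC library stood far from its partner. Slc6a6, the taurine transporter, was at 24.6 and 14.2 FPKM in PGCs, 21.1 and 24.7 in iPGCs and 6.74 and 16.6 in PGCLCs, with 17 and 15.8 in EGC lines 4 and 7. Slc18b1, a vesicular polyamine transporter, gave the largest PGCLC excess over iPGCs in the family (16.3 and 7.10 against 1.84 and 0.915 FPKM; 2.34 ± 0.82, adjusted p = 1).

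Inorganic ion transporters held Slc9b1 and Slc4a8, and no common direction. Their medians were 0.19 in EGCs, 0.42 in iPGCs and 0.29 in PGCLCs, and below 0 in each comparison with quantile normalization (-0.04, -0.01 and -0.28). Slc20a1, a phosphate importer, measured 10.8 and 33.1 FPKM in PGCs, 31.8 and 22.8 in iPGCs and 21.2 and 11.2 in PGCLCs, with 33.2 and 29.8 in EGC lines 4 and 7. Slc9a8, an exchanger of endomembranes, ranged from 6.54 to 20.2 FPKM. Slc4a2, an exchanger of chloride for bicarbonate, measured 9.71 and 7.03 FPKM in PGCs, 3.75 and 2.42 in iPGCs and 10.5 and 2.97 in PGCLCs, with 0.0820 and 0.582 in EGC lines 4 and 7 (EGCs against PGCs -2.83 ± 0.69, adjusted p = 0.0991), and it overlaps Fastk. Slc24a5, a calcium exchanger of pigment granules, measured 1.80 and 9.56 FPKM in PGCs and at most 0.673 elsewhere, and it overlaps Myef2. Slc12a4, a potassium and chloride cotransporter, measured 3.76 and 16.6 FPKM in iPGCs and 1.92 and 3.56 in PGCLCs, with 7.26 and 8.59 in EGC lines 4 and 7. Slc4a11, a membrane protein of the bicarbonate transporter family, measured 1.94 and 4.40 FPKM in iPGCs and 11.5 and 4.84 in PGCLCs.

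Of 9 tested pump genes for sodium, potassium and protons, which supply the gradients that many carriers use, 0 passed in any comparison with PGCs. Their medians were 0.33 in EGCs, 2.13 in iPGCs and 1.71 in PGCLCs, and for 2, 9 and 7 of them (22.2%, 100% and 77.8%) both libraries lay above both PGC libraries, beside 24.1%, 39.4% and 33.5% of all tested genes.

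Nucleotide sugar carriers had medians of 0.22 in EGCs, 0.68 in iPGCs and 0.75 in PGCLCs, and the iPGC median turned to -0.17 with quantile normalization. Slc35a5 in PGCLCs was their only call. Slc35b1, which brings ATP into the endoplasmic reticulum, measured 5.61 and 31.1 FPKM in PGCs, 10.6 and 10.2 in iPGCs and 25.6 and 6.57 in PGCLCs, with 26.2 and 7.88 in EGC lines 4 and 7. Slc35c2 measured 1.97 and 25.2 FPKM in PGCs and 1.88 to 25.3 elsewhere, and Slc35f2 1.79 and 8.28 in PGCs and 8.62 to 21.6 elsewhere. In 3 of 4 groups the Slc35b1 libraries differed from each other by more than the group means did. Slc35a4 measured 12.9 and 26.3 FPKM in iPGCs and 5.72 and 8.49 in PGCLCs (-1.29 ± 0.68, adjusted p = 1) and overlaps Apbb3.

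Sugar and polyol carriers were few after the rule left out both main glucose transporters. Of the 8 members, 5 were under 1 FPKM in both PGC libraries, Slc50a1 among them. These were kept through the other groups, which fixes much of their direction. Slc45a4, a proton-coupled carrier family member, measured 2.34 FPKM in PGC library 1, 102 in library 2 and 5.68 to 19.1 in the others, so a single library held most of the class sum in PGCs (6.08 and 106 FPKM). Slc50a1, a glucose transporter of the Golgi, measured 0.336 and 0 FPKM in PGCs, 5.17 and 19.2 in iPGCs and 15.0 and 4.84 in PGCLCs, with 1.74 and 2.15 in EGC lines 4 and 7. All culture-derived libraries lay above PGCs, with an iPGC difference of 3.27 ± 0.78 (relative 2.81, adjusted p = 0.0859). Slc5a3, the sodium-coupled myo-inositol transporter, measured 1.81 and 1.89 FPKM in PGCs, 12.9 and 7.25 in iPGCs and 0.665 and 1.65 in PGCLCs, with 5.17 and 1.24 in EGC lines 4 and 7, and the difference from iPGCs to PGCLCs was -2.35 ± 0.70 (adjusted p = 0.873). It overlaps Mrps6 on the same strand.

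The 4 members that are not transporters were lower in EGCs than in PGCs on balance, with a median of -1.57. Slc9a3r1, a scaffold for ion exchangers, measured 22 and 47.8 FPKM in PGCs, 34.8 and 44.8 in iPGCs and 45.9 and 45.5 in PGCLCs, with 7.33 and 6.26 in EGC lines 4 and 7. Slc4a1ap, which overlaps Supt7l, measured 46.6 and 9.75 FPKM in PGCs and 2.83 and 7.52 in EGC lines 4 and 7. The EGC lines were thus lowest for both genes, and neither passed the test. Slc7a6os, named for its position opposite Slc7a6, ranged from 1.42 to 16.8 FPKM.

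**Figure D4:**
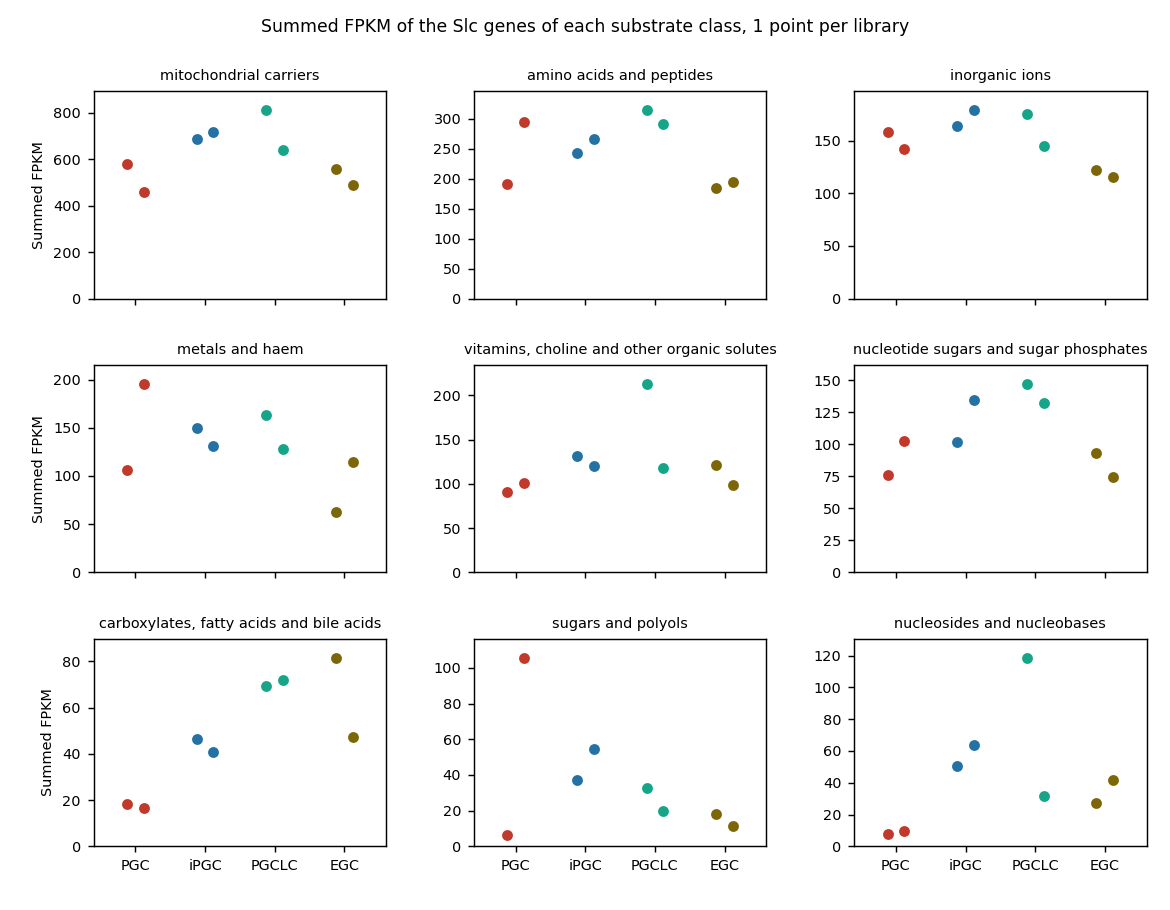
Summed FPKM of the members of each of 9 substrate classes, with 1 point per library and a linear axis from 0. Nucleoside (7.91 and 9.38 FPKM in PGCs) and carboxylate carriers (18.2 and 16.4 FPKM) are lowest in both PGC libraries, while sums of amino acid carriers overlap between PGCs and each other group.

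Between PGCLCs and iPGCs, which came from the same stem cells, the family gave counts near those of all tested genes. Of 198 members, 113 lay higher in PGCLCs and 85 lower, with a median of 0.07 beside -0.00 over all tested genes, of which 49.6% lay higher. The 2 groups did not overlap for 38 members higher in PGCLCs (19.2%, against 17.3% of tested genes) and 36 lower (18.2%, against 19.6%). No member passed, which does not show that the groups were alike. Slc25a35, a mitochondrial carrier, measured 1.23 and 2.14 FPKM in iPGCs and 8.83 and 4.01 in PGCLCs (1.41 ± 0.59, adjusted p = 1), and it overlaps Rangrf. The largest negative difference was that of Slc4a8, given above with its values.

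EGCs lay below both stem cell products over most members, as over most genes. Against iPGCs, 146 of 198 members lay lower and 52 higher (median -0.51, against -0.40 over all tested genes, of which 69.5% lay lower). Both EGC lines lay below both iPGC libraries for 78 members (39.4%, against 39.5%) and above for 23 (11.6%, against 10.8%). Against PGCLCs, 139 lay lower and 59 higher (median -0.47, against -0.38), while 66.2% of all tested genes lay lower, with 70 members below without overlap (35.4%, against 34.2%) and 22 above (11.1%, against 11.8%). The members' shares were thus close to those of all tested genes. Metal and haem transporters had the lowest class medians among transporters against PGCLCs (-0.79), with 9 of 24 below without overlap and 0 above. Against iPGCs their median was -0.72, with 14 of 24 below without overlap and 1 above, and sugar and polyol carriers (-1.08) and nucleoside carriers (-0.81) lay lower still.

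Among 14 transporters known from other cell types, Slc4a1, Slc2a2, Slc15a3, Slc25a37 and Slc39a8 had their highest value in PGC library 1. The rest did not. Slc11a1 was at 1.40 FPKM in PGC library 1 and 14.5 in iPGC library 1. Slc7a7 was highest in EGC line 4 (16.2 FPKM) and Slc40a1 in PGCLC library 2 (10.9 FPKM). Slc4a1, the anion exchanger of red cells, measured 20.4 FPKM there and at most 0.05 elsewhere, while the summed erythroid markers were higher in PGC library 2 (32.7 against 9.38 FPKM). Slc2a2, a glucose transporter of liver and yolk sac, measured 12.1 FPKM and Slc15a3, a peptide transporter of macrophages, 7.52 FPKM in that library. None of these 3 genes met the limit, since they reached 1 FPKM in 1 library only. Among members, Slc25a37, the mitochondrial iron importer of red cell precursors, measured 21.6 FPKM in PGC library 1, 2.08 in library 2 and 2.12 to 5.74 elsewhere. Over the 198 members, Pearson's r of log2(FPKM + 1) between libraries, across genes that are not independent, was 0.67 for the PGC pair, 0.84 for iPGCs, 0.72 for PGCLCs and 0.73 for the EGC lines. Pairs from different groups ran from 0.51, PGC library 1 with PGCLC library 1, to 0.81, iPGC library 2 with PGCLC library 2, so the PGC pair was less alike than several pairs from different groups.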

How the data were processed

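Per the labels' protocols, RNA was amplified with an Ovation kit and sequenced as 50-base single-end reads, 8 libraries in 2 lanes. The deposited table holds FPKM, made by the authors with TopHat2, Cufflinks and the GRCm38 (mm10) genome, per the submitters' processing notes. The versions, the annotation, the filters and any reading of strand were not given in the sources used here. Amplification from few cells can lose low transcripts. Since the table has no counts, count models were not fitted. From 20171 entries, 18 repeats of 15 identifiers were dropped. All 198 members matched GENCODE M21 (GRCm38), which supplied coordinates and overlaps.

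The test used limma 3.58.1 in R 4.3.3, with a variance trend and robust fit, on log2(FPKM + 1) of the 11083 genes that reached 1 FPKM in 2 or more libraries. A single fit over all 8 libraries, with 4 residual degrees of freedom, gave two-sided p-values, and Benjamini-Hochberg adjustment ran over all tested genes of a comparison (threshold 0.05). The test was checked on simulated data. With 2 libraries against 2, no exact test of a class sum could reach the threshold, so classes are described by counts and medians.

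Members, classes and lists were chosen with earlier results of these data known. The class of Slc4a1ap was set after the table was seen. Named are members that passed, the 3 highest of each class, the 6 largest differences each way against PGCs and between PGCLCs and iPGCs (3 for EGCs against the other groups) with no overlap and at least 5 FPKM in the higher group, partners, and genes of other cell types, and some genes that this rule names are not reported here. Alternatives varied the pseudocount (0.1 and 5), the filter, the scaling, the trend, the groups in the fit and the block, and left out each library.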

Additional observations from a re-analysis of the deposited data

How the results depend on the processing

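The settings moved the number of members called, while none of the 60 differences followed over the settings turned its sign in any setting run. These belonged to members that passed or had large differences, all without overlap between the groups compared. Without overlap, another pseudocount or filter or a left-out library cannot turn the sign. The stability was thus largely fixed by the choice of members, and only the scalings could have turned a sign. Other named members, such as Slc45a4 with its unequal PGC values, were not followed in this way. In EGCs against PGCs the count of 1 became 4 with a pseudocount of 0.1, 0 with a pseudocount of 5, without a filter or with only the 2 groups in the fit, and 2 when genes needed 5 FPKM, and also 2 when medians were equalized or quantiles were. In iPGCs (2 called) and PGCLCs (3 called) against PGCs it was 0 with a pseudocount of 5, without a filter, with quantile normalization, equalized medians and only the 2 groups in the fit. With 1 library left out, where the lone library of a group is assumed to vary like the others, it ranged from 0 to 3 in EGCs, 0 to 3 in iPGCs and 0 to 1 in PGCLCs. It was 0 in every setting run for the other 3 comparisons.

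A replicate block on the label numbers, in a fit of the 6 PGC, iPGC and PGCLC libraries, left 0 members called in iPGCs and 0 in PGCLCs. The same 6 libraries without the block, an alternative chosen after seeing the data, also left 0 and 0. Deviations of same-numbered libraries from their group means correlated at 0.0071, -0.0295 and 0.0582 across genes, so the numbers only name libraries. EGC lines share no numbers with the other groups.

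The median difference of the members from PGCs moved with the scale. With a pseudocount of 0.1 it was 0.50 in EGCs, 1.16 in iPGCs and 1.09 in PGCLCs, and with a pseudocount of 5 it was 0.085, 0.26 and 0.28. With quantile normalization it was -0.035, -0.033 and 0.070, and with equal library medians 0.17, 0.22 and 0.089. With 1 library left out it ranged from 0.00 to 0.28 in EGCs, 0.64 to 0.84 in iPGCs and 0.63 to 0.78 in PGCLCs. The causes of these shifts were not tested. A group of 2 libraries limits the test to large differences, and low FPKM values carry a counting error that cannot be read from the table.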
